A study of Sus scrofa with 19 samples.

Results

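Heat shock proteins and their J protein partners were followed in the myocardium of 19 pigs, with 1 RNA library from each pig. The study describes the tissue as left ventricular (LV), but 3 libraries differed from ventricular muscle in their markers, as given below. The members were the genes whose symbol in the deposited table of the authors begins with HSPA, HSPB, HSPD, HSPE, HSPH, HSP90 or DNAJ, matched by Ensembl identifier to the raw count files. This rule took 61 of the 14744 genes of that table, and 60 of the 61 had enough counts to be tested among 13552 genes. By their main site and use they were sorted into 2 stress-inducible cytosolic chaperones, 8 constitutive HSP70, HSP110 and HSP90 proteins of the cytosol, 13 proteins of the endoplasmic reticulum (ER), 9 of the mitochondrion, 5 small heat shock proteins, 21 other J proteins and 3 genes that carry only the symbol.

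All animals were female large white pigs. The DOX group (n = 5) received doxorubicin, an anthracycline that damages the heart, at 60 mg/m2 in 3 cycles, on day 1, day 22 and day 43, and the MYO group (n = 5) received Myocet, doxorubicin enclosed in liposomes, on the same plan. Both were followed for 3 months, the study ending these groups early because the animals became ill, and the anterior LV wall was sampled. In RemoLV (n = 3) the left anterior descending artery was closed for 90 min and then reopened, and the posterior LV wall, remote from the infarct, was taken after 6 months. In Hyper (n = 3) a stent of 9 mm narrowed the aorta of juvenile pigs and loaded the LV with pressure for 6 months before the anterior wall was sampled. The Control pigs (n = 3) were followed for 6 months and are sham-operated by the sample labels and untreated by the methods of the study. Drug and follow-up time cannot be told apart in any comparison of DOX or MYO with the other groups, although the study describes its control pigs as matched in age to the experimental ones, and the sampled wall cannot be told apart from infarction in RemoLV.

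Heat shock proteins bind unfolded protein chains and let them fold, or hold them until they can be degraded. HSP70 proteins work in a cycle driven by ATP: J proteins (the DNAJ family) bring the client and start hydrolysis, HSP110 proteins exchange the nucleotide, and HSP90 finishes the folding of selected clients such as steroid receptors and kinases. Heat shock factor 1 induces the cytosolic set under proteotoxic stress, the unfolded protein response induces the ER set, and the heart, which contracts without pause and has many mitochondria, holds high levels of small heat shock proteins at its sarcomeres.

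The names of the libraries conflicted between the deposited files, which bears on all comparisons below. Each sample column of the authors' table had a rank correlation of 1 with exactly 1 count file (at most 0.992 with any other), and for 8 of the 19 columns that file was labelled with another group. The 3 columns named Control held the libraries that the count files call RemoLV and the reverse, and 1 DOX and 1 MYO library were exchanged. Groups are those of the count file labels here, and the comparisons with Control are also given by the names of the table. The 3 libraries labelled RemoLV differed from ventricular muscle in their markers. MYL4, the atrial light chain, was at 6029 to 8130.0 CPM (counts per 1000000 of the library) in them and at 0.550 to 21.9 CPM in the other 16 libraries, MYL2, the ventricular light chain, at 18.6 to 115 against 8976 to 18077 CPM, and IRX4, a ventricular transcription factor, at 0 to 0.178 CPM. The 6 atrial markers (5 found) summed to 9482 to 12748 CPM in them, 104 to 153 in Control, 196 to 1259.9 in Hyper and 762 to 2431.5 in DOX and MYO. Heart chamber and infarction therefore cannot be told apart in comparisons with RemoLV by the file labels. By the table names the same holds for heart chamber and the Control state. Another library, DOX 1, held 6700.4 CPM of 12 immediate-early genes against 277 to 933 in the other 18. DOX 1 also had the highest smooth muscle marker sum of all libraries (695 CPM, against 158 to 490 in the others), the highest fibroblast sum of DOX and MYO (7020.1 CPM, against 4529.5 to 6606) and the highest atrial sum outside RemoLV. Library totals ran from 9527710 to 20370209 counts (median 14527230).

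The best-known inducible chaperones were in part outside the rule. HSPA1A and HSPA1B correspond in the pig to HSP70.2, which has no symbol in the authors' table and was therefore not a member, but was counted and is given beside the inducible genes. HSP90AA1, the inducible cytosolic HSP90, had 0 counts in all 19 libraries, and the RefSeq annotation gives its chromosome as unknown. Whether reads could be assigned to its gene model was not tested, so the 0, which for counting error alone allows up to 3 counts or 0.315 CPM in the shallowest library, is not read as a level of expression. HSPA6, HSPA2 and HSPB7 were matched to no row. The member DNAJC22 had at most 9 counts in any library and was not tested.

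Promoter sequences are shown for the 5 heat shock proteins of the HSP60, HSP70 and HSP90 families whose windows held one of the response elements through which these genes are known to be induced. They were read from the genome build Sscrofa11.1 at the gene starts of the RefSeq annotation, in which all 61 members were found, and each runs from 250 bases before to 20 bases after the start, 5′ to 3′ on the strand of the gene. In HSPA8 (HSC70, the main constitutive HSP70), HSP90AB1 (the constitutive cytosolic HSP90) and HSPD1 (HSP60, the mitochondrial chaperonin), capitals mark the heat shock element (GAA, TTC and GAA, each 2 bases of any kind apart) on either strand, which HSPA8 held at 2 places. In HSPA5 (BiP, the HSP70 of the ER) and HSP90B1 (GRP94, the HSP90 of the ER), capitals mark the ER stress element (CCAAT and CCACG, 9 bases of any kind apart) on either strand, of which HSP90B1 held 2.
HSPA8 (chr9:49986741-49987010, minus strand): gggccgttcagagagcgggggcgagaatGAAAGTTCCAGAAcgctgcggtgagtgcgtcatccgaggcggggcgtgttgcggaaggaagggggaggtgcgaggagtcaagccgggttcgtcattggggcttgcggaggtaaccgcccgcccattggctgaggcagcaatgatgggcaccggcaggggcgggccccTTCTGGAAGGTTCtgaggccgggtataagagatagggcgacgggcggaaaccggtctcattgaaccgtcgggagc
HSP90AB1 (chr7:39237049-39237318, plus strand): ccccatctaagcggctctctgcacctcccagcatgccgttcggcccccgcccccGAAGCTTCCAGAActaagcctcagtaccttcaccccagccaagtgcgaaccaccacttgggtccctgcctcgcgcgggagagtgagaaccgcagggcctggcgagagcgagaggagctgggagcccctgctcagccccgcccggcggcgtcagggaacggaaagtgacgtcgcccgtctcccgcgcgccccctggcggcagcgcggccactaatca
HSPD1 (chr15:101373479-101373748, minus strand): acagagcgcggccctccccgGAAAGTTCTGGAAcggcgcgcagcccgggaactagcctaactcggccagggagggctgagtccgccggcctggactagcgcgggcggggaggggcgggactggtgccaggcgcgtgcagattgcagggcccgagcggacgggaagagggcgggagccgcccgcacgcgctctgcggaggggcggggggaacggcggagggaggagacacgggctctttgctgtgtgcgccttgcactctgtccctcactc
HSPA5 (chr1:265934940-265935209, minus strand): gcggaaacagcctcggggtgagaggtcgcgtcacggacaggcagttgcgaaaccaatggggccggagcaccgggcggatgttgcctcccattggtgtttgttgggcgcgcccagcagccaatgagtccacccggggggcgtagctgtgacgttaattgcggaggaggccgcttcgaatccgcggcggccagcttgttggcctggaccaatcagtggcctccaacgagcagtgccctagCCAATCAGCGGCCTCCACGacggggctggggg
HSP90B1 (chr5:80530997-80531266, minus strand): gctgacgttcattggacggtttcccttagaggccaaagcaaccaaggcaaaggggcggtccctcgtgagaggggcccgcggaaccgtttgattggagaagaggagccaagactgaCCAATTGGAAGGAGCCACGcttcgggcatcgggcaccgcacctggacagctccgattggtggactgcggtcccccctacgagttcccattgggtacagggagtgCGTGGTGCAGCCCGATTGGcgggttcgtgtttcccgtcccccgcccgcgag

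Searched from 250 bases before to 50 after the start, the heat shock element stood in 6 of 61 member windows (9.84%) and in 74 of 19556 windows of all protein-coding genes (0.378%). The 6 were HSPA8, HSP90AB1, HSPD1 and the J proteins DNAJA1, DNAJB6 and DNAJB14, whose windows are not printed. The inducible members HSPH1 and DNAJB1, the 5 small heat shock proteins and HSP70.2 had no match to these letters in this window, which says nothing of other forms of the element or of other positions. The ER stress element stood in 2 of 61 (3.28%), HSPA5 and HSP90B1, against 16 of 19556 (0.0818%), and the letters of both motifs do not overlap in any of these windows. HSPD1 (chr15:101360355-101373498, minus strand) and HSPE1 (chr15:101374019-101376146, plus strand), which encode the mitochondrial chaperonin and its lid HSP10, start 521 bases apart and point away from each other. These letters are a description of the windows, and no binding was measured.

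Many members had their lowest RNA level in the 3 libraries labelled RemoLV. With every library, members of the cytosol (HSP90AB1, HSPA4), the mitochondrion (HSPA9, HSPE1, DNAJC19) and the ER (DNAJB14, DNAJC10) were lower in DOX and MYO than in Control. Of these, the HSPA4 calls in both groups and the DNAJC10 call in DOX were lost when certain single libraries were left out. DNAJA3 and DNAJC11 of the mitochondrion and HSPA5 and HSP90B1 of the ER did not pass the test in either group, with every library or without any one. In the cytosol HSPH1 and DNAJB1 did not pass with every library, but without Control 2 HSPH1 was lower in both groups and DNAJB1 was lower in MYO. Against Control, 24 of 60 tested members were lower and 4 higher in DOX, where 21.1% of all genes tested were lower and 21% higher (edgeR quasi-likelihood test, Benjamini-Hochberg adjusted p of at most 0.05). In MYO 21 were lower and 6 higher (21.7% and 20.7% of all genes), and in RemoLV 31 were lower and 3 higher (24% and 23.1%). The median log2 fold change of the members was -0.30 for DOX, -0.27 for MYO, -0.48 for RemoLV and -0.15 for Hyper. These comparisons share the 3 Control libraries. In bulk tissue, fewer cells that hold a transcript and less transcript per cell cannot be told apart. Among the 5 groups, 47 of the 60 members differed in any way, against 63.3% of all genes, and 25 of 60 differed among the 4 groups that remain without RemoLV, against 42.9% of all genes.

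**Figure D1:**
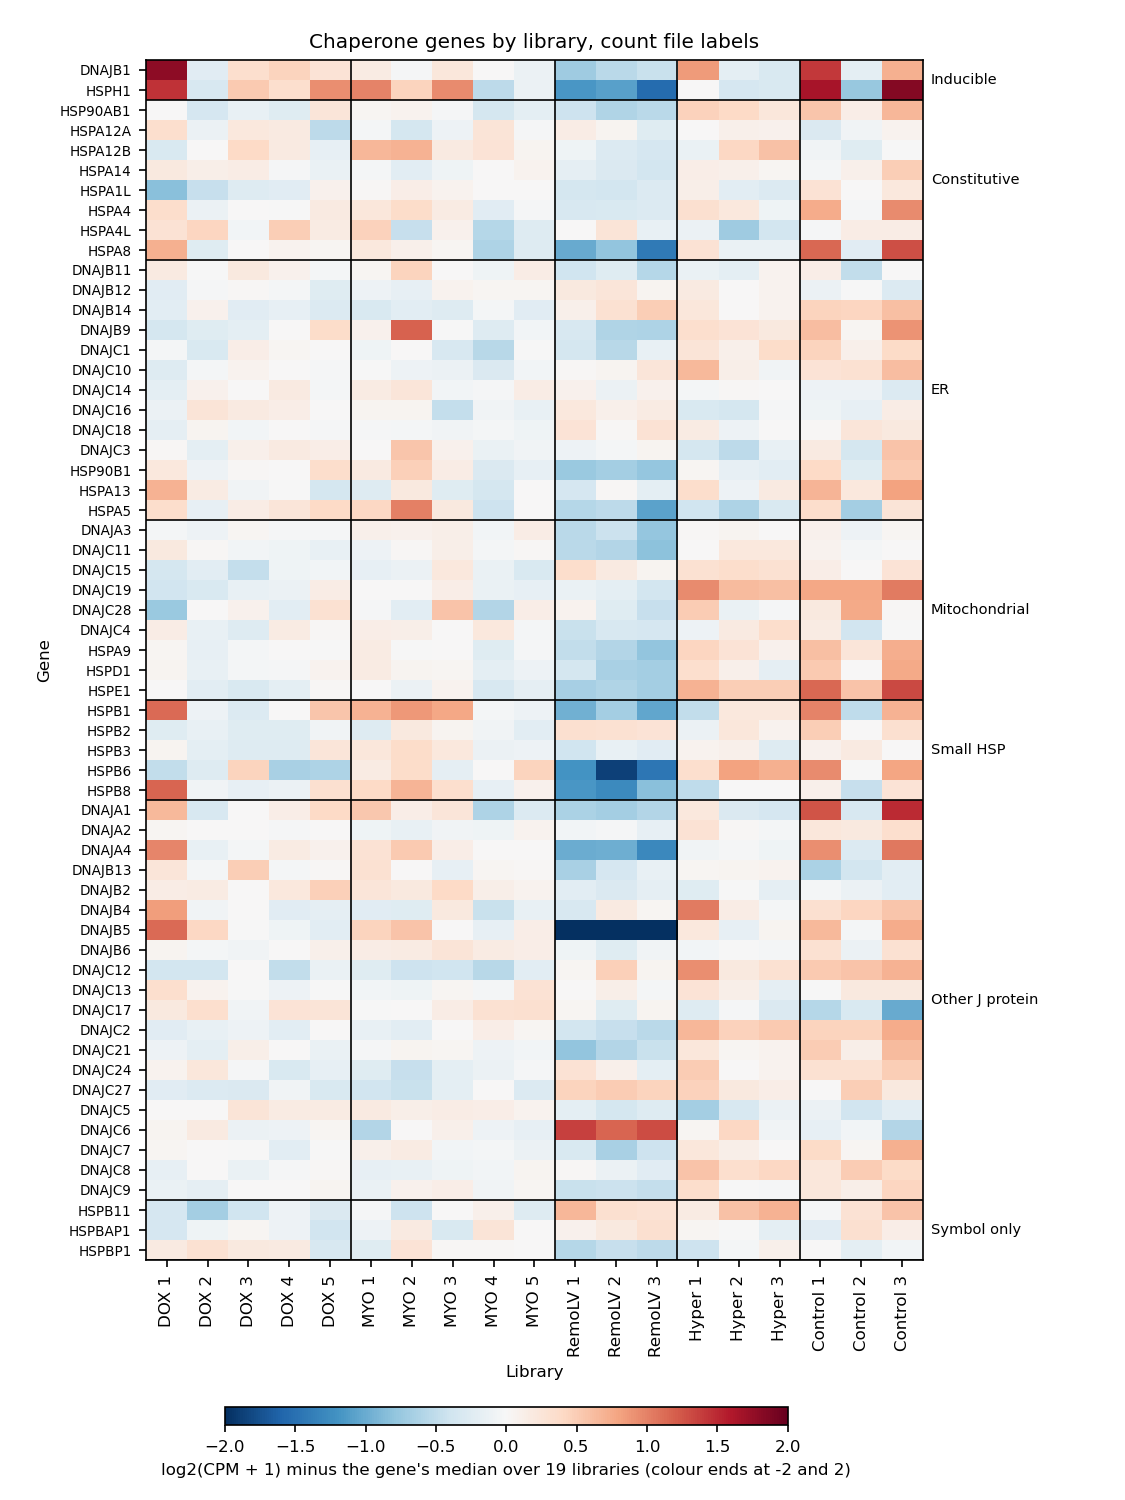
Heat map of the 60 tested chaperone genes (rows, by class) in the 19 libraries (columns, by count file label), as log2(CPM + 1) minus the median of the gene over all libraries. The 3 columns labelled RemoLV are blue in most rows, with DNAJC6 red, and Control 2 is blue or pale where Control 1 and Control 3 are red for HSPH1, HSPA8, DNAJA1 and DNAJA4.

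The Control libraries did not form a tight group for these genes. Control 2 was the lowest of the 3 Control libraries for 38 of 60 members, against 40.6% of all genes, but the size of the gap differed widely between members. The ratio of the mean of Control 1 and Control 3 to Control 2 had a median of 1.17 over the 60 tested members (range 0.606 to 5.87), against 0.993 over all genes. It was above 2 for 6 members (7.82% of all genes), at 5.87 for HSPH1, 3.27 for DNAJA1, 2.75 for HSPA8, 2.56 for HSPB1, 2.53 for DNAJB1 and 2.41 for DNAJA4. It was 1.59 for HSPE1, 1.57 for HSPD1, 1.39 for HSP90AB1 and 1.10 for DNAJC19, and below 1 for 15 members, among them HSPB3 (0.906) and HSPA12A (0.971). Control 2 also had the lowest immediate-early sum (462 against 724 and 859.8 CPM) and the lowest sum of 5 ventricular markers (50047 against 69394 and 74544 CPM) of the 3 Control libraries. The 2 blood markers found of 3, HBB and ALAS2, summed to 350.1 CPM in Control 1 and 339 in Control 3, against 36.2 in Control 2 and 8.40 to 196 in the other 16 libraries, so Control 1 and Control 3 were the highest in blood markers as they were in HSPH1, HSPA8 and HSP70.2. They also had the lowest TMM factors of all libraries (0.735 and 0.696, against 0.965 in Control 2) and the largest share of counts in their 10 most abundant genes (32.3% and 33.7%, against 24.6%). The part of any of these in the chaperone levels of the Control libraries was not tested. Leaving out Control 3 lowered the count of members called from 28 to 15 in DOX and from 27 to 17 in MYO, all of them among those called with every library, and the share of all genes called was then 27.4% and 28.1%. Leaving out Control 2 gave 32 and 29 members (44.7% and 45.8% of all genes). Of these, 6 in DOX (DNAJA4, DNAJB6, DNAJB9, DNAJC1, HSPA13 and HSPH1) and 5 in MYO (DNAJA4, DNAJB1, DNAJC9, HSPB6 and HSPH1) were not called with every library, and all were lower than Control.

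The 2 inducible members are partners of inducible HSP70. HSPH1 (HSP105, a nucleotide exchange factor, chr11:7733874-7759528) was at 114, 20.7 and 129 CPM in Control 1 to 3, at 98.4, 28.2, 51.7, 45.0 and 68.5 in DOX 1 to 5 and at 71.2, 48.8, 69.3, 24.3 and 32.7 in MYO 1 to 5. It was at 15.3, 16.1 and 11.6 CPM in RemoLV and at 35.5, 27.8 and 28.4 in Hyper. Control 1 and Control 3 were above all other libraries while Control 2 was below every library of DOX, MYO and Hyper, and the 3 RemoLV libraries were below all 16 others. In RemoLV the difference from Control passed the test (log2 fold change -2.61, SE 0.55, adjusted p = 8.29e-04; edgeR quasi-likelihood test). In DOX and MYO the log2 fold changes were -0.59 and -0.83 (adjusted p = 0.305 and 0.143), and in Hyper -1.52 (adjusted p = 0.168). All 3 passed the test without Control 2, when HSPH1 was lower in DOX (-1.06, adjusted p = 0.0276), MYO (-1.30, adjusted p = 0.0083) and Hyper (-1.99, adjusted p = 0.00449).

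DNAJB1 (HSP40, the J protein that serves HSP70 in refolding, chr2:64761672-64764482) was at 88.8, 28.3 and 54.2 CPM in Control, at 115, 27.7, 41.3, 45.0 and 39.5 in DOX, at 36.8, 31.9, 38.2, 32.6 and 30.0 in MYO, at 19.5, 22.2 and 23.8 in RemoLV and at 60.0, 28.2 and 26.2 in Hyper. DOX 1, the library with the high immediate-early genes, had the highest level of all 19, and RemoLV was again below all other libraries. It was lower in RemoLV (log2 fold change -1.39, SE 0.45, adjusted p = 0.0164), a call that was lost without RemoLV 1 and without Control 1 (adjusted p up to 0.117). In DOX and MYO its log2 fold changes were -0.08 and -0.75 (adjusted p = 0.882 and 0.123), and it was lower in MYO without Control 2 (-1.08, adjusted p = 0.0317) or without DOX 1 (-0.76, adjusted p = 0.0384). The non-member HSP70.2, the inducible HSP70 itself (chr7:23925929-23927854, plus strand), was at 136, 11.3 and 111 CPM in Control, at 51.4, 7.80, 10.5, 12.8 and 21.3 in DOX, at 33.4, 16.8, 17.4, 8.31 and 8.55 in MYO, at 6.83, 6.03 and 7.04 in RemoLV and at 70.1, 17.5 and 14.5 in Hyper. Control 1 and Control 3 were again the highest libraries, and their mean was 10.9 times the level of Control 2. It was lower in DOX (log2 fold change -2.05, SE 0.68, adjusted p = 0.0217), in MYO (log2 fold change -2.35, SE 0.68, adjusted p = 0.0104) and in RemoLV (log2 fold change -3.70, SE 0.87, adjusted p = 0.00212). The DOX call was lost without Control 1 or Control 3 (adjusted p up to 0.116) and the MYO call without Control 1 (adjusted p = 0.0631). The member HSPA1L lies across HSP70.2 on the opposite strand, and counting used the strand.

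Of the 8 constitutive members, 4 were lower in DOX, 3 lower and 1 higher in MYO, and 4 lower in RemoLV (21.1%, 21.7% and 24% of all genes were lower). Leaving out 1 library gave 1 to 4 of them lower in DOX, 1 to 3 in MYO and 3 to 5 in RemoLV. Without Control 3 the lower counts were 1, 1 and 3 (14.4%, 14.9% and 18.9% of all genes). Without Control 1 the DOX count was 1 (17.9%). HSPA8, which folds new proteins and uncoats clathrin vesicles (chr9:49982278-49986760), was at 2571, 984 and 2839 CPM in Control, 1900.3, 973, 1155, 1219 and 1191 in DOX and 1340.1, 1242, 1184, 755 and 965 in MYO. It was at 573, 671 and 434 CPM in RemoLV and 1417, 1059 and 1058 in Hyper. Control 1 and Control 3 were the highest libraries, Control 2 lay among those of DOX and MYO, and RemoLV was below all others. HSPA8 was lower in MYO (log2 fold change -0.96, SE 0.27, adjusted p = 0.00962) and in RemoLV (log2 fold change -1.93, SE 0.32, adjusted p = 1.23e-04). The DOX difference was at the threshold (log2 fold change -0.73, SE 0.28, adjusted p = 0.0415) and was lost without any one of 6 libraries, with an adjusted p of up to 0.264 without Control 3. The MYO call was lost without Control 1 or Control 3 (adjusted p up to 0.093).

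HSP90AB1 (chr7:39237299-39250479) was at 941, 702 and 1012 CPM in Control, 883, 843 and 747 in Hyper, at 639, 503, 576, 541 and 753 in DOX, at 657, 674, 631, 503 and 558 in MYO and 479, 419 and 439.9 in RemoLV. The groups fell into an order, with RemoLV below all others and Control and Hyper above all but DOX 5 of the drug-treated libraries. It was lower in DOX (log2 fold change -0.55, SE 0.14, adjusted p = 0.00408), MYO (log2 fold change -0.55, SE 0.14, adjusted p = 0.00423) and RemoLV (log2 fold change -0.99, SE 0.16, adjusted p = 8.12e-05), and these calls were kept without any one library. HSPA4 (an HSP110 protein that recharges HSP70) was lower in the same 3 groups (log2 fold changes -0.53, -0.50 and -0.92, adjusted p = 0.0208, 0.0276 and 9.87e-04), of which the DOX call was lost without Control 1 or Control 3 (adjusted p up to 0.191) and the MYO call without these, MYO 4 or MYO 5 (up to 0.237). HSPA14, the HSP70 of the ribosome, was lower in RemoLV (-0.53, adjusted p = 0.00817), HSPA1L in DOX (-0.72, adjusted p = 0.0365), and HSPA12B, an HSP70 relative of endothelial cells, was higher in MYO (0.50, adjusted p = 0.0357). Each of these 3 calls was lost without 1 or more libraries (adjusted p up to 0.0738 without Control 3, 0.121 without Control 1 and 0.107 without Control 2). HSPA12A and HSPA4L passed the test in no comparison with Control by these labels.

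**Figure D2:**
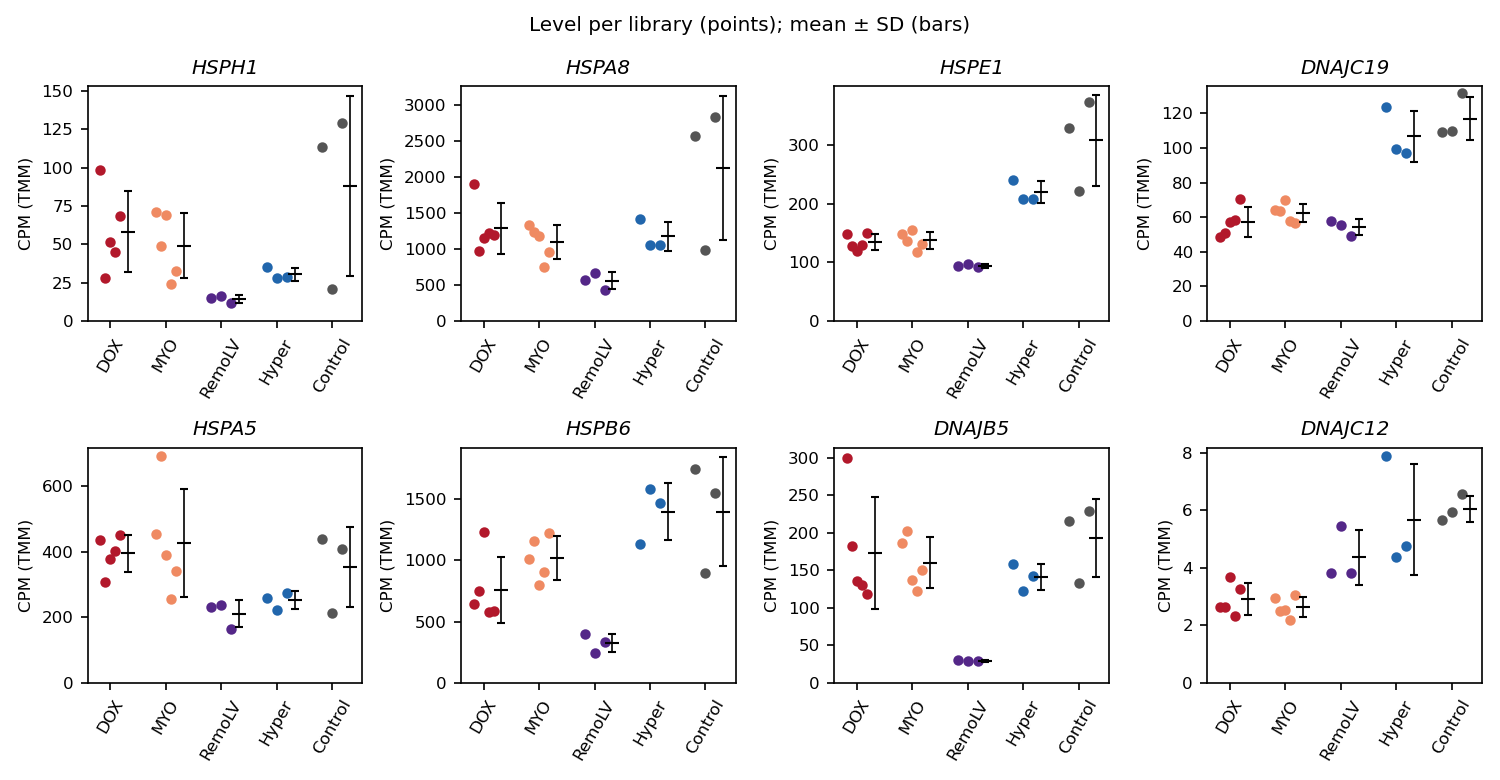
Levels of 8 chaperone genes as CPM after TMM scaling (y axis, linear, from 0) in each library (points) of the 5 groups, with the mean and SD of each group beside them. HSPE1, DNAJC19 and DNAJC12 are lower in all 10 DOX and MYO libraries than in all Hyper and Control libraries, and DNAJB5 and HSPB6 are lowest in the 3 libraries labelled RemoLV.

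The small heat shock proteins divided by group. HSPB6 (HSP20, a sarcomere-bound chaperone of heart and smooth muscle, chr6:45181439-45184011) was at 1746, 898 and 1554 CPM in Control, 1138, 1584 and 1473 in Hyper, at 642, 753, 1229, 579 and 588 in DOX and at 1008, 1161, 796, 904 and 1228 in MYO, with a mean of 324 ± 74.7 (SD, n = 3) in RemoLV. All 3 RemoLV libraries were below the rest, and 4 of the 5 DOX libraries were below all Control libraries. HSPB6 was lower in RemoLV (log2 fold change -2.11, SE 0.29, adjusted p = 1.94e-05) and in DOX (log2 fold change -0.88, SE 0.25, adjusted p = 0.00815; adjusted p = 0.0582 without Control 1), and in MYO the log2 fold change was -0.46 (adjusted p = 0.144; 0.0299 without Control 2). HSPB1 (HSP27, which guards actin filaments) was at 1304, 462 and 1064 CPM in Control, 335, 408 and 318 in RemoLV and 541 to 1439.8 in DOX and MYO, with DOX 1 the highest. Only the RemoLV libraries lay below all others, and the RemoLV difference alone passed the test against Control (log2 fold change -1.42, SE 0.39, adjusted p = 0.00584). HSPB8, which works with BAG3 to remove damaged filament proteins, was lower in RemoLV as well (166, 153 and 209 against 401, 272 and 453 CPM; log2 fold change -1.09, SE 0.31, adjusted p = 0.00721), and in DOX its highest library was again DOX 1 with 839.9 CPM. HSPB2, a partner of the myotonic dystrophy kinase, went otherwise: it was lower in DOX (log2 fold change -0.48, SE 0.12, adjusted p = 0.00353) and MYO (log2 fold change -0.34, SE 0.12, adjusted p = 0.0287) and at 0.02 in RemoLV (adjusted p = 0.92). The MYO call of HSPB2 was lost without any one of 5 libraries (adjusted p up to 0.195 without Control 1). HSPB3 passed the test in none of the 4 comparisons with Control by these labels.

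The mitochondrial members were lower in DOX, MYO and RemoLV or did not pass the test, with HSPE1 and DNAJC19 farthest from Control in DOX and MYO and HSPE1 and HSPA9 in RemoLV. HSPE1 (HSP10) was at 329, 221 and 372 CPM in Control, 241, 208 and 208 in Hyper, at 148, 127, 119.8, 129 and 149 in DOX, at 148, 137, 155, 118 and 131 in MYO and 93.0, 96.7 and 91.5 in RemoLV. No library of DOX or MYO reached the lowest of Hyper or Control, and RemoLV was below all of them. HSPE1 was lower in DOX (log2 fold change -1.19, SE 0.13, adjusted p = 4.16e-06), MYO (log2 fold change -1.16, SE 0.13, adjusted p = 5.67e-06) and RemoLV (log2 fold change -1.71, SE 0.16, adjusted p = 2.54e-07), each kept without any one library. Its log2 fold change in Hyper was -0.49 (adjusted p = 0.142). HSPD1, whose gene starts beside it, moved less: it was at 476, 329 and 560.4 CPM in Control and 287 to 371 CPM in DOX and MYO, ranges that overlap at Control 2. HSPD1 was lower in DOX (-0.48, adjusted p = 0.0136) and MYO (-0.47, adjusted p = 0.0154), calls that were lost without Control 3 (adjusted p = 0.146 and 0.163; the MYO call also without Control 1), and in RemoLV (log2 fold change -1.02, SE 0.17, adjusted p = 9.87e-05).

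DNAJC19 (a J protein of the inner membrane import motor, mutated in a familial cardiomyopathy with ataxia, chr13:118907299-118913270) was at 109, 110.0 and 132 CPM in Control, 124, 99.3 and 97.1 in Hyper, at 48.3, 51.1, 57.1, 58.7 and 70.7 in DOX, at 64.2, 63.6, 69.9, 57.8 and 56.8 in MYO and 57.9, 55.5 and 49.0 in RemoLV. The lowest Hyper library was above every library of DOX, MYO and RemoLV. It was lower in DOX (log2 fold change -1.03, SE 0.12, adjusted p = 6.23e-06), MYO (log2 fold change -0.90, SE 0.12, adjusted p = 2.54e-05) and RemoLV (log2 fold change -1.11, SE 0.14, adjusted p = 7.47e-06), and was -0.13 in Hyper (adjusted p = 0.632). HSPA9 (mortalin, the HSP70 of the same import motor) was at 856, 669.6 and 934 CPM in Control, 478 to 635 CPM in DOX and MYO and 403, 376 and 325 CPM in RemoLV, and was lower in all 3 (log2 fold changes -0.57, -0.55 and -1.16, adjusted p = 9.62e-04, 0.0012 and 3.50e-06). No drug-treated library reached the lowest Control library for HSPA9. DNAJA3 (a J protein that serves mortalin in the matrix) and DNAJC11 (a J protein of the cristae junctions) were lower in RemoLV (-0.58 and -0.67, adjusted p = 8.47e-05 and 8.37e-05). Neither passed the test in DOX (-0.04 and -0.02) or in MYO, where DNAJA3 was at 0.07. Of the 9 mitochondrial members, 5 were lower in DOX, 4 were in MYO and 6 were in RemoLV, and none was higher (21.1%, 21.7% and 24% of all genes were lower). Leaving out 1 library gave 3 to 5 lower in DOX, 3 to 5 in MYO and 6 to 7 in RemoLV. Without Control 3 the counts were 3, 3 and 6 (14.4%, 14.9% and 18.9% of all genes).

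Of the 13 ER members, 2 were lower and 0 higher in DOX, 4 lower and 1 higher in MYO, and 5 lower and 1 higher in RemoLV, where 21.1%, 21.7% and 24% of all genes were lower. These counts depended on the library left out. For DOX the lower count was 5 without Control 2, when DNAJB9, DNAJC1 and HSPA13 were lower too (21.9% of all genes lower). Without Control 3 the lower counts, in the same order of groups, were 1, 3 and 3 (14.4%, 14.9% and 18.9% of all genes). The highest lower counts with 1 library left out were 5 for MYO and 6 for RemoLV. The 1 higher call of MYO and that of RemoLV were each lost in 1 or more of these fits. No test between the classes was run. HSPA5 (BiP) was at 438, 214 and 409 CPM in Control, 259, 222 and 276 in Hyper, at 436, 307, 378, 403 and 453 in DOX, at 456, 693, 389.8, 256 and 342 in MYO and 231, 236 and 163 in RemoLV. All 5 DOX libraries and 4 of 5 MYO libraries were above Control 2 and every Hyper library, while Control 1 and Control 3 lay inside the DOX range. The log2 fold change was 0.16 in DOX and 0.27 in MYO (adjusted p = 0.647 and 0.416), and HSPA5 was lower in RemoLV (log2 fold change -0.75, SE 0.29, adjusted p = 0.0421), a call lost without any one of 5 libraries (adjusted p up to 0.164 without Control 1). HSP90B1 (GRP94) was at 457, 292 and 497 CPM in Control, 283 to 485 CPM in DOX and MYO and 208, 217 and 203 CPM in RemoLV. It was lower in RemoLV (log2 fold change -0.99, SE 0.19, adjusted p = 4.74e-04), with log2 fold changes of -0.15 in DOX and -0.16 in MYO (adjusted p = 0.489 and 0.475).

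Among the J proteins of the ER, DNAJB9 (ERdj4, which hands misfolded chains to degradation) was lower in RemoLV (-1.09, adjusted p = 0.00661). It was at 109 CPM in MYO 2, at 50.6, 47.3, 39.6 and 45.9 in MYO 1, 3, 4 and 5, at 36.8 to 61.7 in DOX and at 73.5, 49.0 and 88.9 in Control. Without MYO 2 it was lower in MYO (-0.62, adjusted p = 0.0129) and in DOX (-0.64, adjusted p = 0.00786; edgeR). Neither passed with every library. DNAJB14, an ER membrane J protein, was at 16.6, 16.3 and 18.5 CPM in Control and lower in DOX and MYO (-0.69 and -0.75, adjusted p = 2.69e-04 and 1.35e-04), with every drug-treated library below the lowest Control library. The Hyper libraries (14.0, 11.9 and 12.6 CPM) were below it too, and DOX 2 (12.7 CPM) lay within their range. The Hyper difference did not pass (-0.41, adjusted p = 0.157; edgeR). DNAJC10 (ERdj5, a disulfide reductase) was lower in both as well (-0.46 and -0.53, adjusted p = 0.0107 and 0.00422; 0.0908 in DOX without Control 3). DNAJC3, an inhibitor of the kinase PERK, and DNAJB11 (ERdj3), a partner of BiP, passed the test in none of the 4 comparisons by these labels. HSPA13 and DNAJC1, an HSP70 and a J protein of the ER, were lower in MYO (-0.73 and -0.51, adjusted p = 0.00833 and 0.01; 0.0611 without Control 3 and 0.0514 without Control 1).

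**Figure D3:**
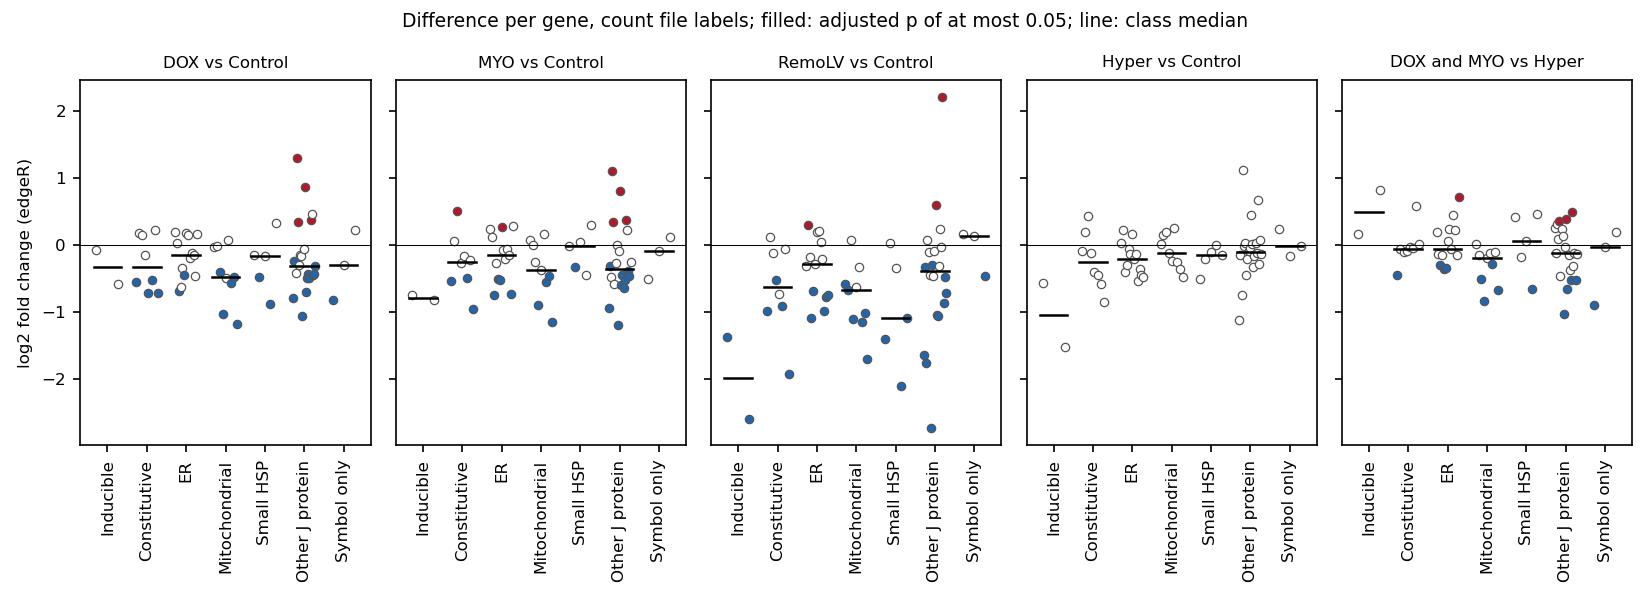
Log2 fold change of each of the 60 tested genes (points) by class in 5 comparisons, from the edgeR model with the count file labels. Filled points have an adjusted p of at most 0.05 (red higher, blue lower) and the lines are class medians. In RemoLV the class medians of the small heat shock proteins (-1.09) and of the inducible members are the lowest, and no point is filled for Hyper against Control.

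Of the 20 other J proteins tested, 4 were higher and 10 lower in DOX, 4 and 9 in MYO and 2 and 10 in RemoLV. Of all genes, 21% were higher and 21.1% lower in DOX, 20.7% and 21.7% in MYO and 23.1% and 24% in RemoLV, so the share of these J proteins that was higher was near that of all genes in DOX and MYO. Leaving out 1 library gave 5 to 12 of them lower in DOX, 7 to 11 in MYO and 9 to 10 in RemoLV. The lowest counts came without Control 3, when 14.4%, 14.9% and 18.9% of all genes were lower. DNAJB5 (a cytosolic J protein, chr1:235790657-235799385) was at 29.8, 28.5 and 28.3 CPM in RemoLV against 216, 134 and 229 in Control, 158, 123 and 143 in Hyper and 118 to 301 in DOX and MYO. The 3 RemoLV libraries were close to each other and far below the rest (log2 fold change -2.74, SE 0.31, adjusted p = 2.30e-06). DNAJC6 (auxilin, which uncoats clathrin vesicles with HSPA8) was the one member higher in all 3 RemoLV libraries than in all 16 others, at 5.35, 4.51 and 5.08 CPM against 0.634 to 2.26 CPM (log2 fold change 2.21, SE 0.33, adjusted p = 3.82e-05). With a log2 fold change of 2 or more in size required as well, DNAJC6 was the 1 member higher and DNAJB5, HSPH1 and HSPB6 the 3 lower in RemoLV (4.12% and 2.22% of all genes), and no member passed in DOX (1.59% of all genes higher and 1.17% lower), MYO (1.23% and 1.24%) or Hyper (0% and 0%). DNAJA1 and DNAJA4, cytosolic partners of HSP70, fell in RemoLV (-1.65 and -1.77, adjusted p = 0.00111 and 1.09e-04). DNAJA1 was at 340.2, 113 and 401 CPM in Control and 91.3 to 221 in DOX and MYO, where its calls (-0.80 and -0.95) were each lost when single libraries were left out. The DOX call was lost without any one of 10 of the 19 libraries (adjusted p up to 0.305 without Control 3) and the MYO call without Control 1 or Control 3 (up to 0.169).

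DNAJC12 (a partner of the aromatic amino acid hydroxylases) was at 2.62, 2.63, 3.67, 2.32 and 3.28 CPM in DOX and 2.93, 2.49, 2.54, 2.16 and 3.05 in MYO, against 7.90, 4.37 and 4.76 in Hyper and 5.67, 5.94 and 6.56 in Control. Every drug-treated library was below all 9 others, and DNAJC12 was lower than Control in DOX (log2 fold change -1.06, SE 0.22, adjusted p = 9.44e-04) and MYO (log2 fold change -1.20, SE 0.22, adjusted p = 3.72e-04). DNAJC2, which joins HSPA14 at the ribosome, was at 20.0 to 26.0 CPM in DOX and MYO, 38.3, 33.0 and 34.6 in Hyper and 32.5, 32.5 and 40.5 in Control, and was lower in DOX (-0.71, adjusted p = 5.86e-05), MYO (-0.60, adjusted p = 2.59e-04) and RemoLV (-1.05, adjusted p = 3.32e-06). DNAJC8, a J protein of the splicing machinery, was lower in the same 3 groups (-0.44, -0.47 and -0.49). All 10 DOX and MYO libraries were below all 6 of Hyper and Control for 5 members (DNAJC12, DNAJC19, DNAJC2, DNAJC8 and HSPE1; 7.53% of all genes did so) and above all 6 for 2 members (DNAJB2 and DNAJC5; 6.61%).

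DNAJC5 (cysteine string protein, of exocytic vesicles) was at 57.8, 57.5, 69.3, 64.7 and 64.7 CPM in DOX and 65.2, 62.6, 63.8, 63.1 and 60.5 in MYO against 35.5, 45.8 and 53.0 in Hyper and 52.8, 43.7 and 49.4 in Control (log2 fold change 0.37, SE 0.11, adjusted p = 0.0126 in DOX and log2 fold change 0.37, SE 0.11, adjusted p = 0.0113 in MYO). These calls were lost without Control 2 (adjusted p = 0.0576 and 0.0527). DNAJB2, a ubiquitin-binding J protein, was higher by a similar amount (0.33 and 0.34, adjusted p = 0.0166 and 0.0151), and these calls were lost without Control 3 (0.0808 and 0.0764). DNAJC17, a nuclear J protein, was at 12.2, 14.9 and 8.82 CPM in Control and 17.8 to 23.7 CPM in DOX and MYO, without overlap, and was higher in DOX (log2 fold change 0.85, SE 0.16, adjusted p = 3.90e-04), MYO (log2 fold change 0.81, SE 0.16, adjusted p = 6.00e-04) and RemoLV (log2 fold change 0.59, SE 0.17, adjusted p = 0.0084; 0.0583 without Control 3). The widest rise against Control in DOX and MYO was that of DNAJB13, a J protein of cilia and sperm tails (1.30 and 1.09, adjusted p = 0.014 and 0.0349), but at 0.211 to 1.67 CPM it rests on few counts, and the DOX call was lost without Control 1 (adjusted p = 0.0795) and the MYO call without any one of 4 libraries (up to 0.161 without Control 1). Of the 3 genes that carry only the symbol, HSPB11, a subunit of intraflagellar transport, was lower in DOX (-0.83, adjusted p = 0.00715; 0.0648 without Control 3), HSPBP1, an exchange factor of HSP70, was lower in RemoLV (-0.47, adjusted p = 0.0339; up to 0.095 without Control 1), and HSPBAP1 passed in none of the comparisons with Control.

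The sums of cell type markers moved with the groups. In RemoLV, 6 fibroblast markers summed to 10667 to 12328 CPM against 2035 to 3432.5 in Control, and 5 ventricular markers to 25022 to 29133 CPM against 50047 to 74544, while 4 markers of all cardiomyocytes were at 21180 to 22108 CPM against 19048 to 24183. Within that last sum ACTC1 was higher in RemoLV (8868 to 9809 CPM against 1056 to 2927 in Control). TNNT2 (6855 to 7470 against 10037 to 14524), MYBPC3 (4068 to 4366 against 4928 to 5495) and RYR2 (686 to 958 against 1156 to 2090) were lower. In DOX and MYO the fibroblast sum was 4529.5 to 7020.1 CPM. The 3 RemoLV libraries also had the lowest sums of 5 endothelial markers (664 to 720 CPM, against 730 to 1027 in the others). Their immediate-early sums were the lowest too (277 to 331 CPM, against 387 or more). Their smooth muscle and immune sums overlapped those of the other groups. Whether these marker sums have a part in the chaperone differences was not tested. The 3 RemoLV libraries were below all 16 others for 21 of 60 members, where 7.98% of all genes were, and above them for 1, where 8.18% were.

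For pressure overload, no member passed the test. In Hyper against Control 0 of 60 members, and 0% of all genes, had an adjusted p of at most 0.05 with edgeR. At an unadjusted p under 0.05 there were 13 members (17.8% of all genes), and DESeq2 called 1 member, DNAJA1. The 13 were led by HSPH1 (-1.52), DNAJB13 (1.12), DNAJA1 (-1.13) and HSPA8 (-0.86). Without Hyper 1, 0 members passed, where 5.6% of all genes did. Without Control 2, 15 members passed, 14 lower and 1 higher (9.08% and 9.32% of all genes). The 14 included HSPH1 (-1.99, adjusted p = 0.00449), DNAJA1 (-1.51, adjusted p = 0.00208), HSPA8 (-1.20, adjusted p = 0.00494) and HSPE1 (-0.68, adjusted p = 0.00204), and the 1 higher was DNAJC17 (0.63, adjusted p = 0.0186), from an alternative set of libraries with 2 Control pigs.

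**Figure D4:**
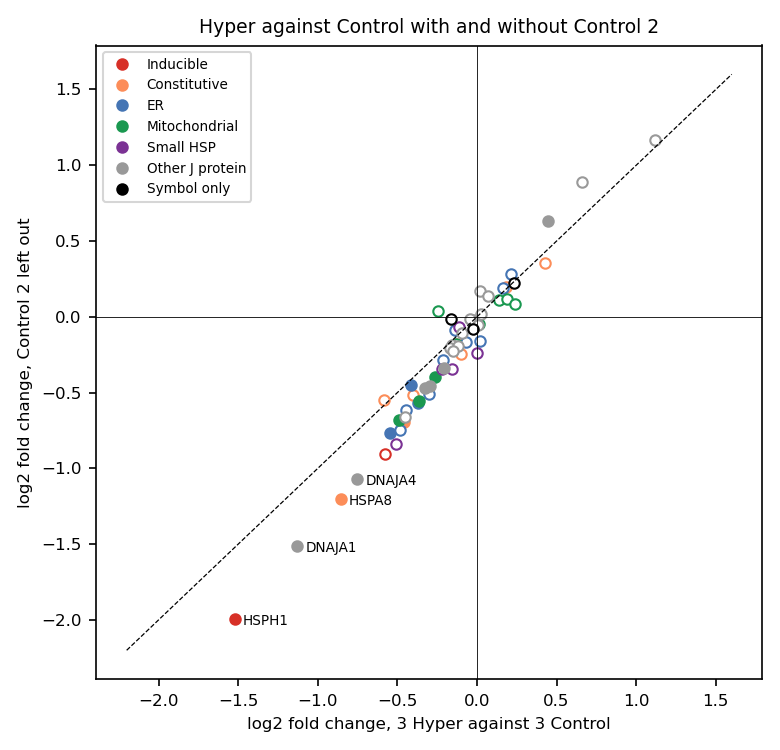
Log2 fold change of Hyper against Control for the 60 tested genes, with all 3 Control libraries (x axis) and with Control 2 left out (y axis), coloured by class, filled where the adjusted p without Control 2 is at most 0.05. The dashed line marks equal values, and HSPH1, DNAJA1, HSPA8 and DNAJA4 lie farthest below 0.

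Between free and liposomal doxorubicin no member passed the test. In DOX against MYO 0 of 60 members and 0% of all genes passed the edgeR test, DESeq2 called 0 members, and at an unadjusted p under 0.05 there were 2 members, HSPA12B (-0.36) and HSPA1L (-0.55), where 7.08% of all genes were. The log2 difference of DOX from MYO was 0.24 for HSPH1 (95% interval -0.59 to 1.07), 0.67 for DNAJB1 (-0.05 to 1.38), 0.23 for HSPA8 (-0.28 to 0.74), -0.11 for HSPA5 (-0.58 to 0.36) and -0.03 for HSPE1 (-0.28 to 0.22). For 57 of the 60 members the interval lay between -1 and 1, and HSPH1, DNAJB1 and HSPA1L were the 3 exceptions. A miss of the threshold does not show that the 2 forms act alike.

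The comparison of DOX and MYO together with Hyper has the same libraries on each side under both namings. In it 14 of 60 members were lower and 4 higher, against 16.9% and 15.8% of all genes. HSPE1 (log2 fold change -0.68, SE 0.12, adjusted p = 2.89e-04), DNAJC19 (log2 fold change -0.84, SE 0.11, adjusted p = 1.39e-05), DNAJC12 (log2 fold change -1.04, SE 0.19, adjusted p = 5.09e-04) and HSPB11 (log2 fold change -0.90, SE 0.20, adjusted p = 0.00197) were lower, and for each the 10 drug-treated libraries were all below the 3 of Hyper. The same held for DNAJC15, DNAJC2, DNAJC27 and DNAJC8, which makes 8 members (11% of all genes), and DNAJB2 and DNAJC5 were above them in all 10 (2 members, 9.98% of all genes). HSPA5 was at 395 ± 57.4 (SD, n = 5) CPM in DOX and 427 ± 165 (SD, n = 5) in MYO against 252 ± 27.2 (SD, n = 3) in Hyper. It was higher in the drug-treated groups (log2 fold change 0.70, SE 0.24, adjusted p = 0.0342), a call that was lost without any one of the 3 Hyper libraries (adjusted p up to 0.136). DNAJC5 was higher too (log2 fold change 0.49, SE 0.10, adjusted p = 0.00137). HSP90AB1, HSPB6 and HSPA9 were lower (-0.45, -0.67 and -0.30), each lost without 1 or more Hyper libraries (adjusted p up to 0.0685, 0.117 and 0.25), and that of HSPA9 also without any one of 4 drug-treated libraries. HSPH1, HSPA8 and DNAJB1 did not pass the test here, with log2 fold changes of 0.81 (SE 0.44), 0.01 (SE 0.25) and 0.16 (SE 0.36) (adjusted p = 0.162, 0.973 and 0.754). Without Hyper 1, 10 members passed, all among the 18, where 18.3% of all genes did.

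By the names of the authors' table the direction against Control turned. The libraries then called Control are those with the atrial markers. They were below all 16 others for 21 of 60 members (7.98% of all genes) and above them for 1 (8.18%). By these names 28 members were higher and 8 lower in DOX (15% and 14.6% of all genes), 27 and 7 in MYO (14.8% and 14.4%), 32 and 3 in RemoLV (24% and 23.2%) and 22 and 1 in Hyper (18.7% and 17.2%). DNAJB5 was the member with the largest rise in each of the 4 (2.29 to 2.74), and HSPH1 was next in DOX, MYO and RemoLV (2.03, 1.76 and 2.61) and HSPB6 in Hyper (2.11). DNAJC6 fell in all 4 (-1.92, -1.80, -2.21 and -1.55), and HSPB11 fell in DOX and MYO (-0.91 and -0.74) while DNAJC17 fell in RemoLV (-0.59). HSPE1 was 0.52 in DOX, 0.56 in MYO and 1.22 in Hyper (adjusted p = 0.0088, 0.00564 and 1.00e-05), and HSPA5 0.91, 1.02 and 0.26 (adjusted p = 0.0158, 0.00814 and 0.513), of which the DOX and MYO calls were lost without RemoLV 3 (0.0881 and 0.0552). By these names the MYO call of HSPH1 was lost without the same library (0.0607), that of HSPB11 without MYO 2 or RemoLV 1 (up to 0.127) and the RemoLV call of DNAJC17 without Control 3 (0.0575). Which naming is right cannot be told from the counts of these genes.

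**Figure D5:**
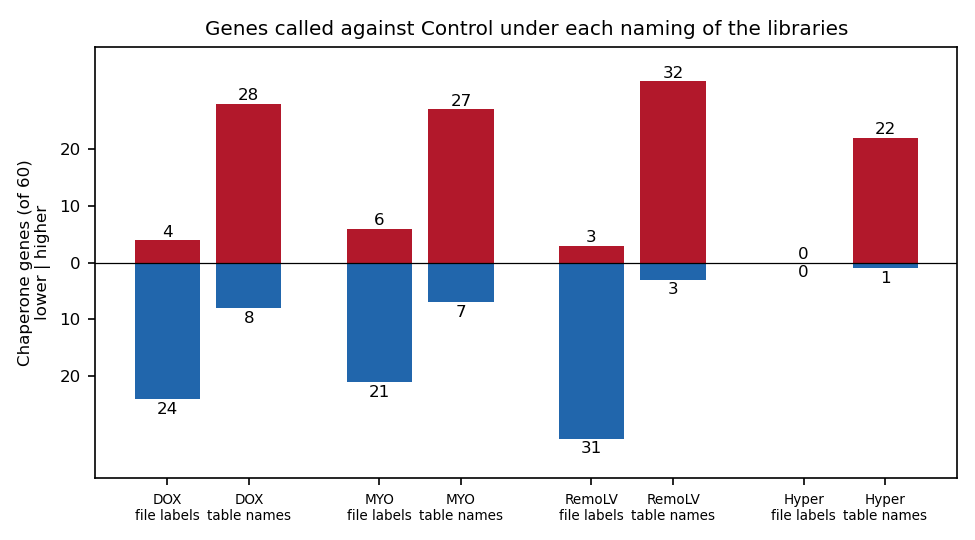
Number of the 60 tested chaperone genes with an adjusted p of at most 0.05 against Control in each group, higher (red, upward) or lower (blue, downward), with the libraries named by the count file labels and by the authors' table. In DOX 24 genes are lower by the file labels and 28 higher by the table names.

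The regulators and partners of the chaperones came from lists chosen by their known roles, with earlier results of these data known. HSF1, the master regulator of the heat shock genes, was at 32.2, 32.3 and 32.2 CPM in RemoLV and 51.6, 42.2 and 41.5 in Control and was lower there (log2 fold change -0.48, SE 0.12, adjusted p = 0.00256), with log2 fold changes of 0.15 in DOX and 0.18 in MYO (adjusted p = 0.256 and 0.169). HSF2 and HSF4 passed the test in none of the comparisons with Control by the file labels. HSBP1, which binds HSF1, was lower in DOX, MYO and RemoLV (-0.45, -0.42 and -0.36, adjusted p = 0.00109, 0.00179 and 0.00983; 0.0564 in RemoLV without Control 3). BAG3, the partner of HSPB8 in removing damaged filaments, was at 218, 96.4 and 201 CPM in Control and was lower in RemoLV (log2 fold change -0.83, SE 0.28, adjusted p = 0.0214; adjusted p up to 0.108 without Control 1). CRYAB, a small heat shock protein of muscle whose symbol lies outside the rule, was at 3472, 1329 and 3427 CPM in Control, 2064, 1192, 1344, 1508 and 1790.4 in DOX and 704, 810.5 and 619 in RemoLV. Control 2 was far below the other Control libraries again. It was lower in RemoLV (log2 fold change -1.95, SE 0.32, adjusted p = 1.00e-04) and DOX (log2 fold change -0.80, SE 0.27, adjusted p = 0.0255; adjusted p up to 0.15 without Control 3).

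All 8 subunits of the CCT chaperonin, which folds actin and tubulin, were lower in RemoLV, and 7 of 8 in DOX and in MYO (24%, 21.1% and 21.7% of all genes were lower), led by CCT6A in RemoLV (-1.08) and CCT2 in DOX and MYO (-0.56 and -0.61). Against Hyper 2 of 8 were lower in DOX and MYO (16.9% of all genes), and TCP1 was the lowest (-0.37, adjusted p = 0.00574). Of 19 cytosolic cochaperones tested, 7 were lower in DOX, 8 were in MYO and 12 were in RemoLV, and none was higher (21.1%, 21.7% and 24% of all genes were lower). FKBP5, the HSP90 cochaperone of the glucocorticoid receptor and itself induced by glucocorticoids, was at 47.6, 39.3, 33.8, 61.2 and 119 CPM in DOX and 57.7 to 111 in MYO against 309, 232 and 222 in Hyper and 181, 289.8 and 181 in Control. It was as low in the 3 libraries labelled RemoLV, at 66.1, 41.4 and 74.3 CPM (log2 fold change -1.84, SE 0.39, adjusted p = 8.29e-04). No library of DOX or MYO reached the lowest of Hyper or Control (log2 fold change -1.85, SE 0.33, adjusted p = 3.04e-04 in DOX, log2 fold change -1.42, SE 0.33, adjusted p = 0.00224 in MYO and log2 fold change -1.86, SE 0.28, adjusted p = 6.83e-05 against Hyper). CHORDC1, an HSP90 cochaperone, had the lowest value of the list in RemoLV (-2.05, adjusted p = 0.00204).

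Of 22 tested genes of ER folding and the unfolded protein response, 3 were higher and 4 lower in DOX, 3 and 6 in MYO, 1 and 7 in RemoLV, and 7 higher and 2 lower in DOX and MYO against Hyper. The shares of all genes were 21% higher and 21.1% lower in DOX, 20.7% and 21.7% in MYO, 23.1% and 24% in RemoLV and 15.8% and 16.9% against Hyper. In the last comparison the collagen chaperone SERPINH1 had the largest rise (log2 fold change 1.11, SE 0.28, adjusted p = 0.00651; 0.059 without Hyper 1), HYOU1, the ER exchange factor of HSPA5, was higher (log2 fold change 0.95, SE 0.26, adjusted p = 0.0087; 0.0564 without Hyper 1), and SIL1, another exchange factor of HSPA5, was the lowest (-0.44, adjusted p = 0.00332). CRELD2, an ER stress target, was higher in DOX and MYO than in Control (0.66 and 0.69, adjusted p = 0.0254 and 0.0197; 0.126 and 0.101 without Control 2), and the lectin chaperone CANX was lower in DOX (-0.56, adjusted p = 0.00587; 0.0522 without Control 3). CANX was also lower in MYO, a call lost in 5 of the alternative fits. It was at 288, 270 and 265 CPM in RemoLV against 522, 457 and 609 in Control. ATF4, a transcription factor of the integrated stress response, was the lowest of the list in MYO (-0.72, adjusted p = 0.0453), a call lost without any one of 13 libraries, and in RemoLV (-1.03, adjusted p = 0.0135; 0.113 without Control 3). SYVN1, the ubiquitin ligase of ER-associated degradation, was the 1 gene of the list that was higher in RemoLV (0.61, adjusted p = 0.0294), a call lost without any one of 3 libraries (up to 0.141).

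Of 10 tested genes of mitochondrial protein quality control, 2 were higher and 4 lower in DOX, 4 and 2 in MYO, 0 and 5 in RemoLV, and 1 and 3 in DOX and MYO against Hyper, beside the shares of all genes just given. The largest rise was that of CLPB, a disaggregase, in DOX (0.48, adjusted p = 0.0293; lost without any one of 3 libraries, up to 0.121). In MYO it was that of TRAP1, the mitochondrial HSP90 (0.52, adjusted p = 0.0414; lost without any one of 7 libraries, up to 0.227). Against Hyper the 1 gene higher was the protease HTRA2 (0.25, adjusted p = 0.023; lost without Hyper 1 or Hyper 3, up to 0.0972). The protease subunit CLPX was the lowest in DOX and MYO (-0.59 and -0.63, adjusted p = 4.52e-04 and 2.65e-04) and CLPP in RemoLV (-0.86, adjusted p = 2.37e-04) and against Hyper (-0.35, adjusted p = 0.0342; lost without any one of 4 libraries, up to 0.162).

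By the names of the table, the counts higher than Control in DOX, MYO, RemoLV and Hyper were 5, 3, 8 and 8 of 8 CCT subunits, 7, 6, 12 and 9 of 19 cytosolic cochaperones, 5, 10, 8 and 3 of 22 ER genes and 4, 4, 5 and 4 of 10 mitochondrial genes, beside 15%, 14.8%, 24% and 18.7% of all genes. SYVN1 in RemoLV was the 1 gene of these lists that was lower. HSF1 was higher than Control in DOX, MYO, RemoLV and Hyper (0.63, 0.67, 0.48 and 0.50), and HSF4 in Hyper (0.84, adjusted p = 0.0284; lost without any one of 3 libraries). The largest rises of the lists in DOX were those of FKBP4, an HSP90 cochaperone of steroid receptors (1.26), CCT6A (0.66), HYOU1 (1.14) and GRPEL2, an exchange factor of HSPA9 (0.39, adjusted p = 0.0323; lost without any one of 6 libraries). In MYO they were those of CRYAB (1.39), CCT6A (0.57), HYOU1 (1.23) and CLPP (0.71). In Hyper they were those of FKBP5 (2.07), TCP1 (0.67), SIL1 (0.86) and CLPP (0.90). In RemoLV against Control this naming exchanged the same libraries, and the values of CHORDC1, CCT6A, ATF4, SYVN1 and CLPP were those above with the other sign.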

How the data were processed

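RNA of heart tissue from 19 pigs (5 DOX, 5 MYO, 3 RemoLV, 3 Hyper, 3 Control), described by the study as left ventricular, was sequenced as poly(A) libraries with strand kept. Per the submitters' notes and methods, STAR placed the read pairs on Sscrofa11.1 and HTSeq 0.11.1 counted them over Ensembl gene models by strand, and the raw counts the authors deposited were used here. Their table of 14744 genes holds, as deposited, log2-like expression values, used here only for symbols and to match its columns to the count files, and the fold changes and adjusted p-values of the authors' own comparisons, which were not used.

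Groups followed the count file labels, with a second fit by the names of the table. Counts were scaled with TMM and filtered with filterByExpr in edgeR 4.0.16 (R 4.3.3), and 1 quasi-likelihood model of the 5 groups was fitted to 13552 genes, with Benjamini-Hochberg adjustment over all of them. Members were called at an adjusted p of at most 0.05. The study's fold threshold (absolute log2 fold change of at least 2) was a second rule. Levels are CPM (counts per 1000000 of the library scaled by its TMM factor), not per length, so levels are compared between libraries and not between genes. Each library is 1 pig, and p-values measure the spread between these pigs. Library totals of 9527710 to 20370209 counts set the counting precision of low genes such as DNAJB13 and DNAJC12, and the limit given for a count of 0 covers counting error only. Alternatives were RLE size factors, no filter on low counts, at least 10 counts in every library, DESeq2 1.42.0, only the groups compared, a replicate block, leaving out each library, the RemoLV libraries or the 2 exchanged libraries. The procedure was tested on simulated counts. No 2 libraries were alike within sampling noise (lowest mean chi-square per gene 11.3 over 171 pairs).

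The members, the classes and the lists of regulators, partners and cell type markers were chosen with earlier results of these data known. Named by rule were 25 chaperones from the different compartments and, for each comparison with a direction, the 2 members with the largest rise and the 2 with the largest fall among those called, the heat shock factors, BAG3, CRYAB and the 1 gene per list and comparison with the largest called change each way. Other members were named after their values were seen, because they stood apart in all libraries of a group, because 5 or fewer made up a count or to fill out a class.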

Additional observations from a re-analysis of the deposited data

Results flagged for a closer look

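Within the groups of 5, DOX and MYO, the highest or lowest library of a gene was compared with its neighbour by Dixon's test at the 95% level. In 12 of 122 groups a library stood apart, where chance gives about 1 in 20 groups, or 6.1, for independent groups of normal values. The groups are not independent, because all members share the same libraries, so the 12 cannot be judged against the 6.1. The share of all genes that stood apart by this test is not given. In 5 of the 12 it was DOX 1 that was the highest, the library that also had the highest immediate-early sum (6700.4 CPM) and smooth muscle sum (695 CPM) of all libraries and the highest fibroblast sum of DOX and MYO (7020.1 CPM). DOX 1 was the highest DOX library for 18 of 60 members, near its share of 26.7% over all genes, and DOX 5 was for 17 (23.2%). DNAJB1 was at 114.8 CPM in DOX 1 and HSPA8 at 1900.3 CPM. HSPB8 was at 839.9 CPM, DNAJA4 at 499 CPM and DNAJB4 at 355 CPM in the same library. The part of these markers in the chaperone levels was not tested.

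Of the ER J proteins, DNAJB9 was at 109 CPM and DNAJC3 at 23.8 CPM in MYO 2, both far above the other MYO libraries, and HSPA5 was highest of all libraries in MYO 2 too. DNAJB14 was at 12.7 CPM in DOX 2. The small heat shock protein HSPB6 was at 1229 CPM in DOX 3, and DNAJB6, a J protein that keeps aggregates of polyglutamine in check, at 139 CPM in MYO 3. Lowest values apart from the rest were those of DNAJC7 in DOX 4 (36.8 CPM) and of HSPBP1 in DOX 5 (11.9 CPM).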

How the results depend on the processing

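Leaving out each library in turn gave 15 to 32 members called in DOX against Control (28 with every library), 17 to 30 in MYO (27), 27 to 38 in RemoLV (34), 0 to 15 in Hyper (0), 0 to 0 in DOX against MYO (0), 10 to 19 in DOX and MYO against Hyper (18) and 37 to 49 among the 5 groups (47). By the names of the table these ranges were 24 to 37 in DOX (36), 23 to 36 in MYO (34), 27 to 38 in RemoLV (35) and 20 to 28 in Hyper (23). The lowest counts in DOX and MYO by the file labels came without Control 3, the 15 in Hyper without Control 2 and the 10 against Hyper without Hyper 1. Without the 3 RemoLV libraries 25 members differed among the 4 groups that remain, and DESeq2 called 1 member in Hyper. All other counts under RLE size factors, DESeq2, either filter on low counts, fits of only the groups compared, and fits without the RemoLV or the exchanged libraries were within 1.5 times those given. In 9076 refits of 345 called differences 0 reversed, and the call was lost in 458 of 6555 refits that left out 1 library and in 174 of 2521 others. Low counts limit DNAJB13 and DNAJC22. With a replicate block, 22 members were called in DOX, 22 in MYO, 32 in RemoLV, 0 in Hyper, 0 in DOX against MYO, 12 in DOX and MYO against Hyper and 39 among the 5 groups, and 31, 28, 32 and 21 by the names of the table. The numbers do not pair the libraries: over 32 pairs with the same number in different groups, the correlation of their deviations ran from -0.27 to 0.30, with 4 above 0.1.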
